A study of Mus musculus with 30 samples.

Results

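The genes described here are 33 type I interferon-stimulated genes of the mouse, out of 20849 genes named in an RNA sequencing table of mammary tumours. The members came from a fixed list of gene names. Where several transcripts carried 1 name, the transcript with the highest mean was taken, which applied to 5 of the 33 genes. All 33 reached a mean of at least 1 RPKM (reads scaled to transcript length in kilobases and to library size), the level required for testing, together with 13613 genes in all. The tumours came from 30 backcross animals, 1 tumour each. MOLF, a wild-derived strain, had been crossed with mice that carry PyMT, the middle T antigen of polyoma virus, an oncogene that gives rise to mammary tumours. The offspring were crossed to FVB, a laboratory strain, so the animals differ in which of their chromosome segments come from MOLF. The labels place all animals in 1 group and give no age, treatment, stage, tumour cell share or genotype at any locus. Every comparison below is therefore a relation across tumours. The p-values rest on differences from animal to animal, in which technical variation is contained.

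Type I interferons bind a receptor made of Ifnar1 and Ifnar2 on the cell surface. The kinases Jak1 and Tyk2 then phosphorylate transcription factors of the STAT family, among them Stat2, which joins Irf9 in the complex ISGF3. ISGF3 binds interferon-stimulated response elements (ISRE) in promoters and switches on antiviral effectors, sensors of viral nucleic acid, more of its own subunits and inhibitors of the pathway. Interferon-gamma acts through a different receptor and gamma-activated sites (GAS) in promoters, and induces the GBP and IRG families of GTPases most strongly. Many genes answer to both.

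The promoter sequences that ISGF3 reads were looked up first, because they are what the members have in common on paper. RefSeq promoters (build GRCm38.p6, 250 bases before to 50 bases after the start) were at hand for 24 of the 33 members. The ISRE word (GAAA, any 2 letters, then GAAA), searched on both strands with overlapping matches allowed, lay in the window of 11 of these 24 members (45.8%). It lay in 3.44% of all 32851 promoters and for 3.99% of 27025 genes. The GAS word TTCNNNGAA lay in the window of 6 of 24 members (25%), against 8.30% of promoters and 9.55% of genes. The stretches below are members whose word lies wholly upstream of the start, written 5′ to 3′ along the gene, with the matched letters in capitals. The first 7 hold the ISRE word, on the gene's own strand or on the other one. Isg20, the member least like the rest in these tumours, is shown as an example of a window with the GAS word and not the ISRE word. The windows of Ifit2 and Ifi35 likewise held the GAS word and not the ISRE word, so this does not set Isg20 apart.
Isg15, chr4:156200863-156200908, minus strand: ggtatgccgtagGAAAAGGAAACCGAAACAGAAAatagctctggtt
Bst2, chr8:71537575-71537614, minus strand: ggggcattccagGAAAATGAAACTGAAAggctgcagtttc
Oas1a, chr5:120907526-120907557, minus strand: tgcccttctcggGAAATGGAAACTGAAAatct
Oas3, chr5:120777713-120777746, minus strand: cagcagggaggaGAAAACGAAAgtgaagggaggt
Ifit1, chr19:34640773-34640825, plus strand: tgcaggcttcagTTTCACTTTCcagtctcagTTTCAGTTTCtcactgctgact
Ifit3, chr19:34583361-34583428, plus strand: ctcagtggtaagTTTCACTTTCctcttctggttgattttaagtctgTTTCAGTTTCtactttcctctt
Rsad2, chr12:26456551-26456584, minus strand: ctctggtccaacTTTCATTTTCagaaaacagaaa
Isg20, chr7:78913339-78913371, plus strand: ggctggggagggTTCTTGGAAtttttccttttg

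In the Isg15 stretch 3 matches overlap into 1 run, and in Bst2 and Oas1a 2 matches overlap. Ifit1 and Ifit3 each hold 2 separate matches. Stat2 had the word further upstream, and in Ddx58, Ifih1 and Eif2ak2 it lay across or after the start. A match is a description of letters and not a measured binding site.

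The members were present in every tumour, most of them at moderate level, and they varied more from tumour to tumour than other genes did. Their mean levels ran from 1.22 RPKM (Mx1) to 55.4 RPKM (Bst2), with a median of 7.26 RPKM, against 11.7 RPKM over all tested genes. The standard deviation (SD) of log2(RPKM + 1) over the 30 tumours had a median of 0.54 over the members and 0.27 over all tested genes, and 32 of the 33 members lay above that 0.27. The highest tumour stood above the lowest by 2.34-fold (Trim25) to 56.5-fold (Ifit3), with a median of 8.77-fold. Libraries differed in depth: 16 held 42.6 to 61.8 M reads and 14 held 116.7 to 196.3 M, as recovered from the steps between low values. For 3 members the mean was below 2 RPKM, so their lowest values rest on few reads. In bulk tissue, fewer cells that express a gene and less RNA per cell cannot be told apart.

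**Figure D1:**
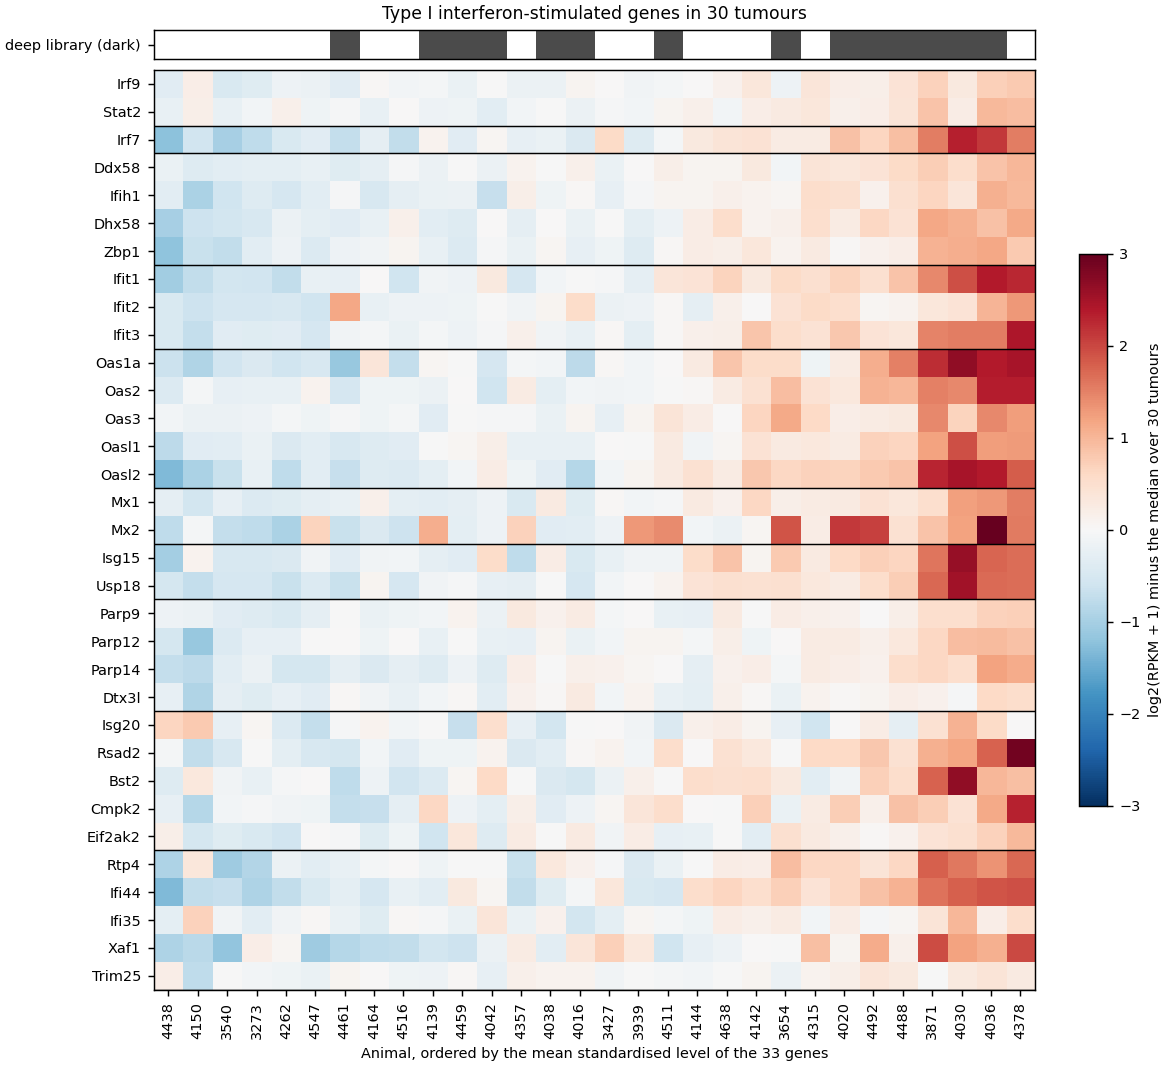
Each row is a gene, grouped by role, and each column a tumour, ordered by the mean standardised level of the 33 genes, with colour giving log2(RPKM + 1) minus the gene's median and the strip above marking deep libraries. Nearly all rows darken together in the columns of animals 3871, 4030, 4036 and 4378 at the right, while Isg20, Ifi35, Trim25 and Mx2 break the pattern.

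The 2 subunits of ISGF3 among the members spanned a narrower range than the factor that amplifies the response. Irf9, the DNA-binding subunit of ISGF3, ran from 18.3 RPKM (animal 3540) through a median of 25.3 RPKM to 44.3 RPKM (animal 4378). Stat2, its partner, ran from 8.28 through 10.6 to 21.7 RPKM (animal 4036). The highest value was 2.43-fold the lowest for Irf9 and 2.63-fold for Stat2, and both had animals 4378, 4036 and 3871 as their 3 highest. Irf7, the factor that interferon induces and that in turn drives more interferon genes, spanned 13.3-fold. It ran from 7.31 RPKM (animal 4438) through 18.5 RPKM to 97.0 RPKM (animal 4030), followed by 84.1 RPKM in animal 4036. The next, 55.7 RPKM in animal 3871 and 55.1 RPKM in animal 4378, stood clear of the fifth at 35.2 RPKM.

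The 4 sensors spread more than the ISGF3 subunits and less than Irf7. Ddx58 (RIG-I), which detects viral RNA with a free end, ran from 10.8 through 14.4 to 29.8 RPKM. Ifih1 (MDA5), the sensor of long double-stranded RNA, ran from 3.02 through 6.82 to 15.3 RPKM. Their regulator Dhx58 (LGP2) ran from 4.05 through 9.12 to 21.7 RPKM, and Zbp1, which senses Z-form nucleic acid, from 6.34 through 15.97 to 36.6 RPKM. The highest-to-lowest span was 2.76-fold for Ddx58, and the others lay between 5.07-fold (Ifih1) and 5.78-fold (Zbp1).

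Among the effectors were the genes with the widest spread and the lowest levels. Oas1a, an oligoadenylate synthetase that activates RNase L, ran from 2.05 RPKM (animal 4461) through 5.73 to 41.4 RPKM (animal 4030), with an SD of 1.04 log2 units. Its relative Oasl2 ran from 1.10 RPKM (animal 4438) through 4.28 to 28.01 RPKM (animal 4030), with an SD of 0.98. In both genes animals 4030, 4036, 4378 and 3871 held the 4 highest values. Oas2 and Oasl1 had medians of 3.19 and 1.94 RPKM, and Oas3 one of 0.851 RPKM with a highest value of 4.06 RPKM. Oas1a has close copies (Oas1b and Oas1g), so its level depends on how reads were divided among them.

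The IFIT proteins, which bind viral RNA lacking the host cap, were scarce in most tumours. Ifit3 ran from 0.164 RPKM (animal 4150) through 0.925 to 9.27 RPKM (animal 4378). Ifit1 ran from 0.539 RPKM (animal 4438) through 2.18 to 15.4 RPKM (animal 4036). Ifit2 parted from them: its second highest tumour was animal 4461, with 5.25 RPKM against a median of 1.81 RPKM, where Ifit1 and Ifit3 were not among their 5 highest. Animal 4461 was also highest for Klk1, at 404 RPKM against a median of 0.628 RPKM. How far the departure of Ifit2 rests on that 1 library was not tested. Ifit3 and Ifit1 also have near-copies, Ifit3b among them, and are uncertain to that degree. Rsad2 (viperin), which blocks viral replication, ran from 0.316 through 1.19 to 15.3 RPKM, and its chromosome 12 neighbour Cmpk2, a mitochondrial nucleotide kinase, from 1.10 through 2.79 to 17.8 RPKM. Both peaked in animal 4378.

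The Mx GTPases, which trap viral nucleoproteins, did not behave as a pair. Mx2 had the largest SD of all members, 1.06. It ran from 0.699 RPKM (animal 4262) through 2.28 to 30.5 RPKM (animal 4036). The next were 13.3 RPKM in animal 4020, 12.5 in animal 4492 and 11.1 in animal 3654, and of the 4 tumours highest over all members animal 4036 alone was among the 4 highest for Mx2. Mx1, whose entry is a non-coding transcript, ran from 0.312 through 0.916 to 4.52 RPKM. Their pairwise r over 30 tumours was 0.599, the lowest among 12 pairs of neighbouring members. Reads of such related genes can be divided between them in mapping, which was not tested.

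The most abundant effector was Bst2 (tetherin), which holds budding virus at the cell surface. It ran from 23.7 RPKM (animal 4461) through 40.7 to 263.2 RPKM (animal 4030), followed by 142.0 RPKM in animal 3871 and 81.9 RPKM in animal 4036. Animal 4030 thus stood far above every other tumour. Eif2ak2 (PKR), the kinase that halts translation, ran from 8.89 through 14.04 to 28.7 RPKM. Isg20, an exonuclease, ran from 2.05 RPKM (animal 4547) through 3.97 to 9.23 RPKM (animal 4030), and its next highest tumours, animal 4150 with 7.61 RPKM and animal 4438 with 6.80 RPKM, were the 2 lowest tumours over the whole set.

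Isg15, the ubiquitin-like modifier, ran from 3.32 RPKM (animal 4438) through 7.79 to 52.5 RPKM (animal 4030). Usp18, which removes Isg15 from proteins and also dampens the receptor, ran from 1.49 through 3.09 to 22.3 RPKM (animal 4030). Modifier and brake shared their 4 highest tumours. The ADP-ribosyltransferases and their partner ligase were steadier. Parp9 and Dtx3l, whose products form a complex, had SDs of 0.30 and 0.29, Parp12 0.43 and Parp14 0.47. Parp9 ran from 11.8 through 16.5 to 28.02 RPKM, and Dtx3l from 6.05 through 12.3 to 19.03 RPKM.

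Of the remaining members, Rtp4, a chaperone of receptors, had a median of 12.2 RPKM and peaked at 44.8 RPKM in animal 3871. Ifi44 ran from 1.41 through 5.07 to 22.03 RPKM. Xaf1, a partner of the apoptosis inhibitor XIAP, ran from 1.18 RPKM (animal 3540) through 3.94 to 18.6 RPKM (animal 4378), with 18.1 RPKM in animal 3871 next. Ifi35, the second most abundant member by its mean of 28.3 RPKM, ran from 17.8 RPKM (animal 4016) through 26.7 to 54.1 RPKM (animal 4030), followed by 43.4 RPKM in animal 4150. Trim25, the ubiquitin ligase that acts on RIG-I, had the smallest SD, 0.23, and ran from 13.4 RPKM (animal 4150) through 23.5 to 31.3 RPKM (animal 4036). Animal 4150 was thus the second highest for Ifi35 and the lowest for Trim25.

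The members rose and fell together across the tumours. Over 528 pairs of members the median Pearson r was 0.753, against 0.0141 for pairs over all tested genes, and 197 pairs lay above 0.8. The closest pair was Oas1a with Usp18 (r = 0.971), on different chromosomes, and the widest apart Ifi35 with Trim25 (r = -0.116), both on chromosome 11. The members lie on 14 chromosomes. The 12 neighbouring pairs had a median r of 0.849, and the 516 others one of 0.7495, so the median over pairs hardly rests on neighbours. Against the mean of the other members, 24 genes had an r above 0.8 and 14 above 0.9, led by Ifit1 (0.966), Ifit3 (0.957) and Oasl2 (0.951). The lowest were Isg20 (0.291), Ifi35 (0.543), Trim25 (0.547), Mx2 (0.682), Dtx3l (0.685) and Ifit2 (0.702). All tumours share the measuring scale and 2 depth ranges, and without the 4 highest tumours the median pairwise r was 0.530.

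Those 4 tumours were singled out after their values had been seen. On the mean standardised level of the 33 genes, animal 4378 lay at 2.06, 4036 at 1.96, 4030 at 1.68 and 3871 at 1.49. The fifth, animal 4488, lay at 0.604 and the lowest, animal 4438, at -0.959. Every one of the 33 members peaked in one of the 4: 11 in animal 4378, 11 in 4036, 9 in 4030 and 2 in 3871. All 4 were the 4 highest tumours for 17 members, 3 of them for 11 members, 2 for Ifit2, Isg20, Dtx3l and Trim25, and 1 for Mx2.

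Yet the 4 did not raise the same members to the same degree. Animal 4030 led in Oas1a (7.23 times the median of 30 tumours), Usp18 (7.22 times), Isg15 (6.74 times) and Bst2 (6.46 times), while Cmpk2 was at 1.48 times and Dtx3l at 0.982 times. Animal 4378 led in Rsad2 (12.9 times), Ifit3 (10.03 times) and Cmpk2 (6.37 times), with Bst2 at 1.90 times. Animal 4036 led in Mx2 (13.3 times) and Ifit1 (7.07 times). In animal 3871, the highest for Rtp4 (3.69 times) and Dhx58 (2.38 times), Trim25 was at 0.985 times. Each is 1 library, so these differences have no replicate.

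**Figure D2:**
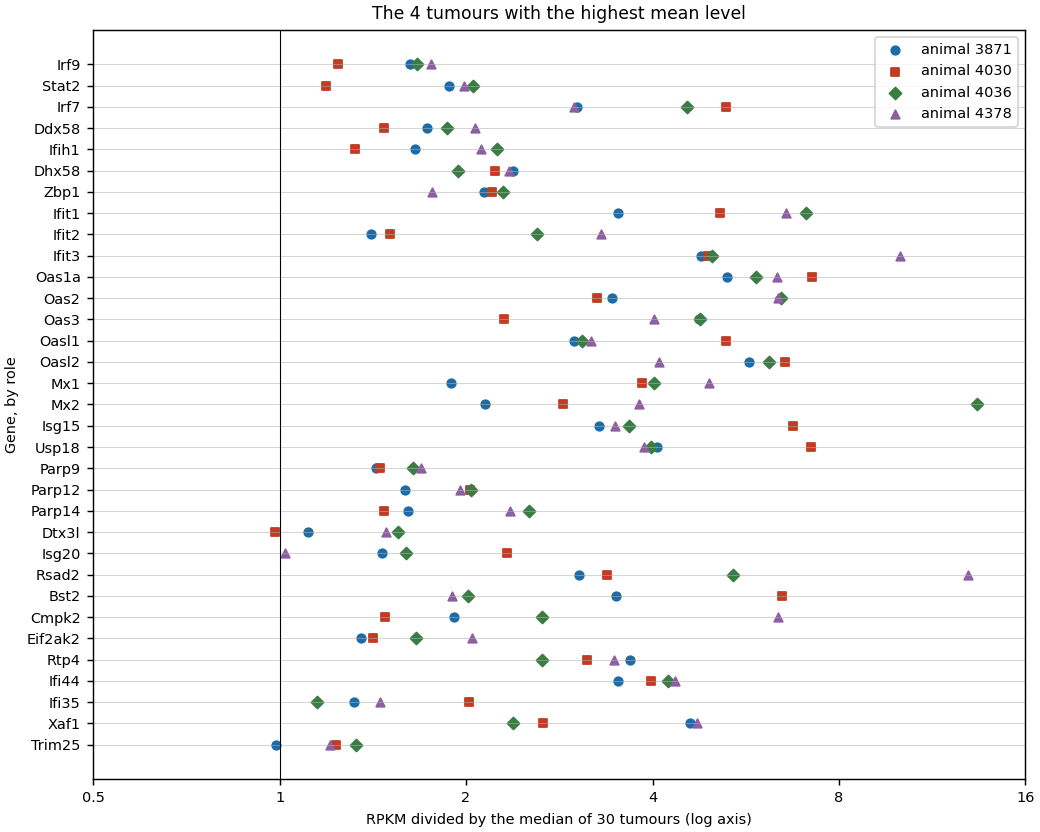
Points give the RPKM of each gene, ordered by role, divided by its median over 30 tumours on a log axis, for the 4 animals with the highest mean level. Animal 4030 lies furthest right for Isg15, Usp18 and Bst2, and animal 4378 for Rsad2, Ifit3 and Cmpk2.

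The 4 tumours differed in their marker genes of other cell types. The summed RPKM of T cell markers ran from 16.5 to 100.7 over the 30 tumours with a median of 27.1, and animal 4378 held the highest value. B cell markers summed to 93.4 RPKM in the same animal, against a median of 8.63 RPKM. Summed macrophage markers ran from 161.0 to 497.2 and stromal matrix markers from 368 to 6646, and animal 4036 was highest in both. As standardised scores, animal 4378 had 3.24 for T cells and -0.64 for macrophages, and animal 4036 had 0.36 and 2.62. Animal 4030 had -0.86 for T cells and -0.61 for macrophages, with 0.92 for proliferation against -2.42 in animal 4036. Animal 3871 had 0.93 for T cells and 0.76 for macrophages. Natural killer markers summed to at most 3.72 RPKM in any tumour and none of the 6 reached a mean of 1 RPKM. No marker gene of these lists was at 0 in every tumour.

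How far the members move with related genes outside the list was described with a score of the GBP and IRG families of GTPases. Interferon-gamma induces these most strongly, but many genes answer to both kinds of interferon. The lists were also chosen with earlier results of these data known, so a rise of most members was likely beforehand. Each gene was regressed on the score. Limma was run with Benjamini-Hochberg adjustment over 13613 genes, including the 11 GTPases at testable level that make up the score. Of the 33 members 31 rose with the score and none fell, where 1.94% of the 13602 tested genes outside the score rose. Slopes per SD of the score ran from 0.08 (Isg20) to 0.86 (Oasl2) in log2(RPKM + 1), with a median of 0.45 over the members and -0.0060 over all tested genes. The steepest were Oasl2 (0.86 ± 0.08, SE, adjusted p = 2.21e-08), Oas1a (0.86 ± 0.11) and Ifit1 (0.76 ± 0.07). Ifit3, with a slope of 0.67 ± 0.05, had the smallest adjusted p, 2.17e-10. The ISGF3 subunits had shallow slopes, 0.24 ± 0.04 for Irf9 and 0.27 ± 0.04 for Stat2, and both passed the test, as did Ifi35 (0.18 ± 0.05, adjusted p = 0.0352). The 2 that did not pass were Isg20 (0.08 ± 0.08, adjusted p = 0.650), whose slope was -0.12 without the 4 highest tumours and -0.074 within the shallow libraries, and Trim25 (0.10 ± 0.04, adjusted p = 0.153). Without the 4 highest tumours 8 members passed, within the 14 deep libraries 19 and within the shallow ones 26. These refits used fewer tumours, and their counts are given without the share of all tested genes.

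**Figure D3:**
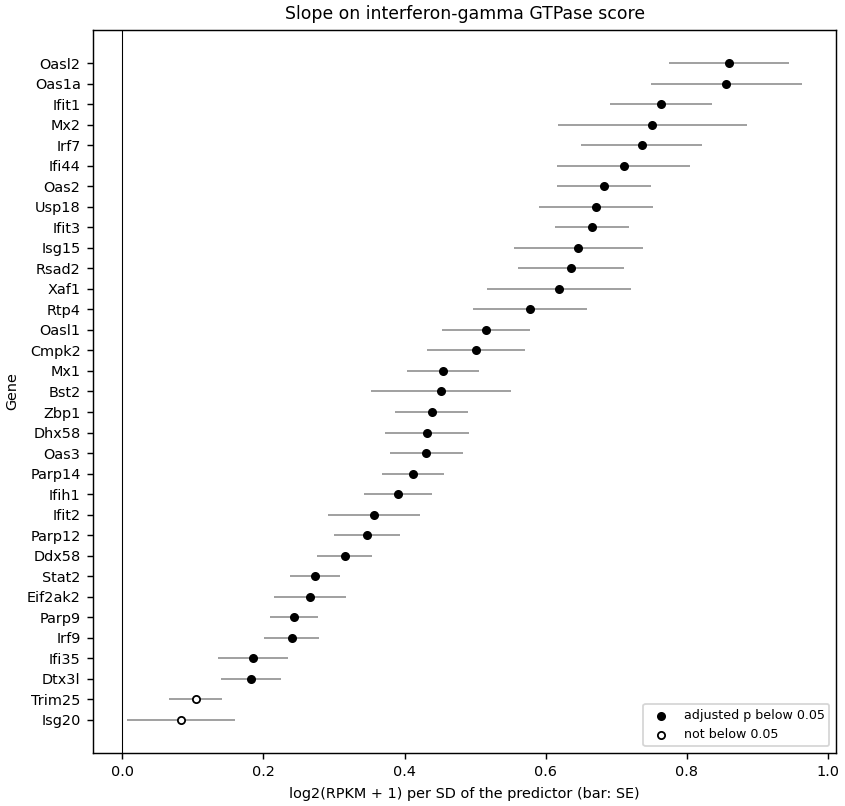
Points give the slope of each gene in log2(RPKM + 1) per SD of the interferon-gamma GTPase score over 30 tumours, with bars for the SE and open points where the adjusted p was not below 0.05. Oasl2 and Oas1a lie at the top with slopes of 0.86, and Trim25 and Isg20, the open points, at the bottom with 0.10 and 0.08.

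Whether the members follow infiltrating or stromal tissue was asked by regressing them on marker scores. With the T cell score no member passed the test (limma, background 1.57%), though 21 had an unadjusted p below 0.05 and 32 of 33 slopes were positive. The background is for adjusted p, and the share of all tested genes at an unadjusted p below 0.05 is not given here. The lowest adjusted p was 0.0777, for Oas3. With depth class as a covariate 7 members passed, within the shallow libraries 15 and within the deep libraries 0. For these refits no share of all tested genes is given here, so the counts stand without a background. With the macrophage score 1 member rose, Parp14 (3.03% of 33), where 9.54% of all tested genes rose. With the stromal matrix score 7 members rose (21.2%), where 10.6% of all tested genes did: Oasl2, Ifih1, Zbp1, Cmpk2, Parp12, Parp14 and Dtx3l. With the luminal epithelial score no member passed (background 0.485%) and none had an unadjusted p below 0.05.

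All 33 slopes on the proliferation score were negative, with a median of -0.24, and 9 members (27.3%) fell with it in limma, where 7.86% of all tested genes fell. These were Ifit1, Ifit3, Irf9, Stat2, Ddx58, Ifih1, Zbp1, Cmpk2 and Parp14, with Stat2 lowest in adjusted p (-0.18 ± 0.05, adjusted p = 0.0120). Leaving out 1 tumour changed this count to 21 for animal 4030 and to 5 for 4142 or 4315, 4 for 4547, 3 for 4378 or 4438, and 0 for 4036. For the T cell score it was 4 without animal 4030, 2 without 4038 and 1 without 4142, 4150 or 4488. For the macrophage score it was 6 without 4378, 4 without 4030, 2 without 3273 or 4547, and 0 without 4036, 4150 or 4438. For the stromal score it was 12 without 4378, 11 without 3273, 2 without 4150 and 1 without 4036. Within the deep libraries 2 members passed for macrophages, 1 for stroma and 0 for proliferation, and within the shallow libraries 0 for each. These refit counts, too, are given without the share of all tested genes.

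Library properties were set against the members in the same way. All 33 genes had a higher mean in the deep libraries, by a median of 0.31 log2 units, and 32 of 33 had a negative slope on insert size, which the labels state. These 2 properties are not separate. Mean insert size ran from 201.8 (animal 3871) to 254.8 (animal 4461) in deep libraries. In shallow ones it ran from 227.1 (animal 4150) to 275.7 (animal 3273). Of the 4 highest tumours, animals 3871, 4030 and 4036 were deep and animal 4378 shallow. In neither fit did a member pass the test (limma, background 1.24% for depth and 0.0367% for insert size). At an unadjusted p below 0.05 there were 11 and 13 members. The share of all tested genes at that unadjusted level is not given here, and the backgrounds above do not apply to it. Without animal 4378 1 member passed for depth, and without 4378 or 4638 1 for insert size. The largest differences between deep and shallow libraries were in Mx2 (0.91 ± 0.34) and Ifi44 (0.68 ± 0.29).

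Isg20, Ifi35 and Trim25, the 3 members with the lowest r with the others, were then taken singly. For each, all genes were regressed on the member with the mean of the other members held constant, and counts leave out the members. With Ifi35, 3000 of 13580 genes were called (22.1%), 1366 rising and 1634 falling. With Trim25, 2718 were called (20%), 1466 rising and 1252 falling. With Isg20, 42 were called (0.309%), 23 rising and 19 falling. Leading risers with Ifi35 were Mrps7, Sra1, Atp5h, Coa6 and Psmb3, subunits of mitochondria and the proteasome among them, and leading fallers Btbd7, Snx29, Nrip1, Tbl1x and Cnot6l. Trim25 ran the other way: Cnot6l, Cnot1, Med14, Mpp7 and Gk5 rose with it, and Uqcc2, Edf1, Pfdn6, Fkbp2 and Smdt1 fell.

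Both lists divided by transcript length. Genes rising with Ifi35 had a median length of 1271 bases and those falling 5111 bases, where all tested genes had 2721. With Trim25 the risers had 4958 and the fallers 1273 bases. Ifi35 itself has 1362 bases and Trim25 5590. A length slope was therefore computed for each tumour after these lists had been seen, as the change of log2(RPKM + 1), centred on each gene, per doubling of transcript length over the tested genes outside the members. It ran from -0.27 in animal 4150, where short transcripts were relatively high, through a median of 0.02 to 0.10 in animal 4016, and the second lowest was -0.11. Across the tumours its r with the mean of the members was 0.0620 and with insert size 0.2497 (n = 30, a description).

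The members themselves tended to follow it by their own length. Exceptions were Zbp1 (770 bases, r = -0.026) and Oas3 (4720 bases, r = 0.018), among others. Over the 33 members the r with the length slope ran from -0.636 (Ifi35) and -0.486 (Isg20) to 0.594 (Dtx3l) and 0.696 (Trim25). Spearman rho for these 4 genes was weaker: -0.43 for Ifi35, -0.35 for Isg20, 0.41 for Dtx3l and 0.61 for Trim25. Animal 4150 alone lay at -3.60 SD of the length slope. How far these r, and those below, rest on that 1 tumour was not tested. Across the 33 members this r had a Pearson r of 0.781 and a rho of 0.815 with the logarithm of length, a description over genes that share the same 30 libraries. After the length slope was taken out, the r with the other members moved from 0.543 to 0.778 for Ifi35, from 0.547 to 0.728 for Trim25 and from 0.685 to 0.821 for Dtx3l. Mx2 stayed apart, at 0.682 and 0.680, and Isg20 moved from 0.291 to 0.382. No pair of members then had a negative r, and the median over pairs was 0.779.

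**Figure D4:**
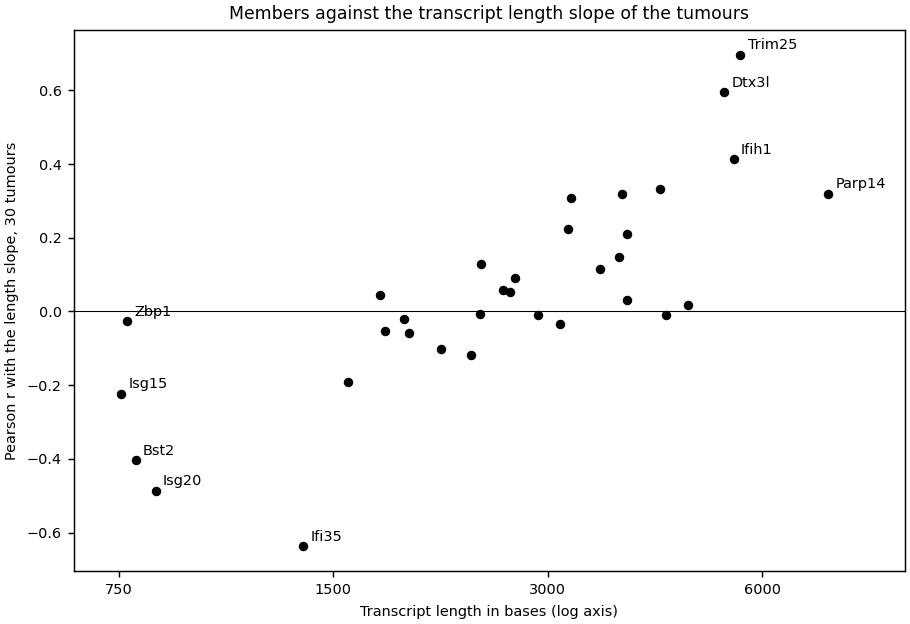
Each point is a member, with its transcript length in bases on a log axis and the Pearson r of its log2(RPKM + 1) with the length slope over 30 tumours on the vertical axis. Ifi35 lies at -0.636 and Isg20 at -0.486 among the short transcripts, and Trim25 lies at 0.696 and Dtx3l at 0.594 among the long ones.

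Once the length slope was a covariate, no gene was called with Ifi35, 1 with Trim25 and 3 with Isg20. Without animal 4150 and with no covariate, 650 genes were called with Ifi35 and 79 with Trim25. Within the deep libraries 121 were called with Ifi35, 0 with Trim25 and 8 with Isg20, and within the shallow libraries 1565 with Ifi35 and 0 with Isg20. In the limma fit on the GTPase score with the covariate, 32 of 33 members rose, where 2.49% of all tested genes did, Ifi35 (0.20 ± 0.03, adjusted p = 6.41e-05) and Trim25 (0.09 ± 0.03, adjusted p = 0.0401) among them. Isg20 did not pass (0.10 ± 0.07, adjusted p = 0.476).

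The genes that rose with Isg20 before the covariate were led by P4ha1 (0.33 ± 0.05 log2 units per SD, adjusted p = 0.000363), Slc16a3, Fam162a, P4ha2 and Id1. P4ha1 and P4ha2 are prolyl hydroxylases of collagen, and Slc16a3 exports lactate. Sel1l, Slc39a9, Fndc3b and Plcb4 were among those that fell. None of its neighbours Aen, Det1, Acan and Hapln3 was called. With the length slope held constant, the 3 genes called in limma all rose. They were P4ha1 (0.38 ± 0.05, adjusted p = 0.000640), P4ha2 (0.48 ± 0.09, adjusted p = 0.0454) and Bnip3 (0.55 ± 0.10, adjusted p = 0.0482). The count of 42 moved widely with single tumours: it was 1833 without animal 4438, 266 without 4036, 111 without 4459, 97 without 4144 and 66 without 4357. It was 26 without 4020, 22 without 4638, 21 without 4516, 18 without 4262, 14 without 4038, 13 without 4547, 12 without 4150, 6 without 4511, and 2 without 4030 or 4042.

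The same fit was then run for all 33 members, a choice made after the first results had been seen. More than 1000 genes were called for 11 members, in 5 of which the risers were shorter than the fallers (Isg15, Oasl1, Rtp4, Bst2 and Ifi35, of 756 to 2125 bases) and in 6 longer (Ifih1, Parp12, Parp14, Dtx3l, Trim25 and Eif2ak2, of 3231 to 7417 bases). With the length slope held constant, 1 of these 11 stayed above 1000, Eif2ak2, whose count went from 2855 to 3159. Parp9, not among the 11, went from 638 to 1251. For 9 members no gene was called in the first fit, and for 12 with the covariate.

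Some members varied with genes of their own chromosome. Of the 20 genes with the smallest p, 19 lay on the member's chromosome for Irf7, 17 for Xaf1, 9 for Oas3, 6 each for Dhx58 and Mx2, and 5 for Ifi35. For the other 27 members 0 to 3 did. These counts were, with the length slope held constant, 18 for Irf7, 18 for Xaf1, 11 for Oas3, 3 for Dhx58, 5 for Mx2 and 11 for Ifi35. The chromosomes of Irf7, Xaf1 and Oas3 hold 8.14%, 8.79% and 6.18% of the tested genes. Irf7, Xaf1 and Oas3 were chosen for a closer description by these counts.

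**Figure D5:**
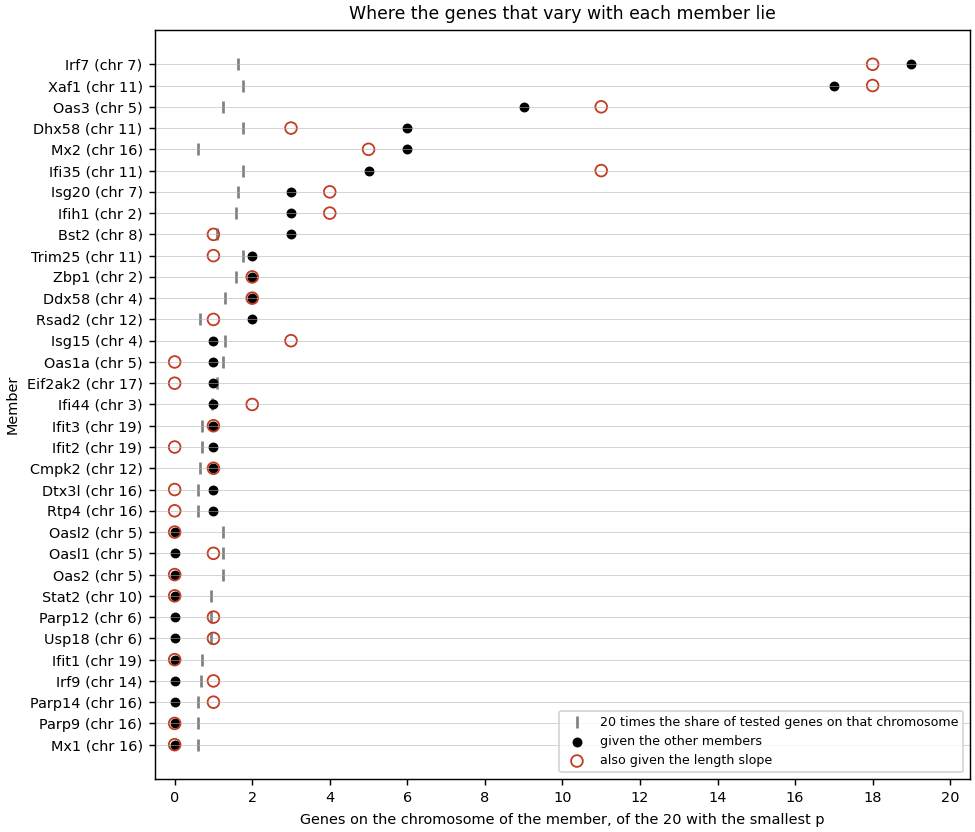
For each member, the filled point gives how many of the 20 genes with the smallest p lie on the member's own chromosome, the open circle the same with the length slope held constant, and the grey tick 20 times that chromosome's share of tested genes. The filled points of Irf7 (19), Xaf1 (17) and Oas3 (9) lie to the right of those of all other members.

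Beyond what it shares with the other members, Irf7 on chromosome 7 was high in animals 3427, 4030 and 4139 and low in animals 4378, 4438 and 4516. With Irf7, 691 genes were called (5.09%), of which 371 rose and 320 fell. On chromosome 7 itself 198 of 1105 tested genes were called (17.9%) and all 198 rose, while elsewhere 493 of 12475 were called (3.95%), 173 rising and 320 falling. Leading was Pld3, an endolysosomal nuclease (0.57 ± 0.07, adjusted p = 0.000109). It had 110.2 RPKM in animal 4030 and 120.1 RPKM in animal 3427, against 69.0 RPKM in animal 4378 and 52.8 RPKM in animal 4438. Vkorc1 of the vitamin K cycle (0.71 ± 0.11), Ccdc97, Dmwd and Rbm42 followed, each with an adjusted p of 0.00115.

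These genes lay along the whole chromosome rather than beside Irf7. Among the 19 on chromosome 7, Vkorc1 lay closest, 152 genes from Irf7, and Zfp787 farthest, 1764 genes away. Of the adjoining genes Rassf7 rose (0.63 ± 0.12, limma adjusted p = 0.00455) and Phrf1 did not pass (0.23 ± 0.07, adjusted p = 0.0580). On the other side Cdhr5 (0.24 ± 0.25, adjusted p = 0.587) and Sct (0.39 ± 0.25, adjusted p = 0.348) did not pass. With the length slope held constant 160 genes were called, 104 of them on chromosome 7 and all rising, 9.41% of that chromosome's tested genes against 0.449% elsewhere. The count was 71 without the 4 highest tumours, and 0 within the deep libraries, within the shallow ones, and on ranks. Leaving out single tumours gave 1139 without animal 4150, 1125 without 4020, 437 without 4315, 354 without 4139, 341 without 4016, 340 without 4042, 167 without 4030 and 116 without 4438.

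For Oas3 on chromosome 5 the pattern was local. Only Cfap73 (0.83 ± 0.13, adjusted p = 0.00431), Acad10 (0.52 ± 0.09) and Dtx1 (0.64 ± 0.12), the latter pair with an adjusted p of 0.0236, were called (0.0221%), and all 3 rose. Cfap73 lies 4 genes from Oas3, Dtx1 2 genes and Acad10 21 genes away. Of the 9 chromosome 5 genes among the top 20, 8 lay within 21 genes of Oas3 and had positive slopes, Iqcd, Slc8b1, Sds, Sdsl and Acad12 without passing the test. Slc2a9, 500 genes away, had a negative slope that did not pass either. Cfap73 stood at 21.5 RPKM in animal 3654, where Oas3 was at 3.04 RPKM, and at 12.2 RPKM in animal 3871, where Oas3 was at 4.04 RPKM. In animals 4030 and 4139 Cfap73 was at 3.08 and 2.17 RPKM. The adjoining Oas2 (adjusted p = 0.403) and Oas1b (adjusted p = 0.512) were not called. The count was 1 without animal 3871, 4030, 4139 or 4488, 5 without 4150, and 6 without 4511 or 4638. It was 1 without the 4 highest tumours, and 0 within the deep libraries, within the shallow libraries and on ranks of Oas3.

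For Xaf1 on chromosome 11 no gene was called with limma. Of 13580 genes 257 had an unadjusted p below 0.05, a smaller share than that threshold would let pass among unrelated genes. The 17 genes of chromosome 11 among its top 20 lay 71 to 547 genes away and had slopes of both signs, 7 positive and 10 negative. Zswim7 (0.41) and Nf1 (0.41), which restrains Ras, had positive slopes, and the ribosomal protein gene Rpl26 (-0.67) and Pigl (-0.26) negative ones, with adjusted p of 0.255 to 0.361. Rpl26 has a near-copy on chromosome 5, Gm15772, with the same slope, so its own level is uncertain. With the length slope held constant 4 genes were called, 3 of them on chromosome 11: Rpl26, AA465934 and Nf1. Without animal 4378 or 4638 1 gene was called. Given the other members, Xaf1 was highest in animals 3427, 3273 and 3871 and lowest in animals 4036, 4547 and 4511.

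The rest of the pathway was read against the GTPase score in the same limma fit, by lists that hold no member. The 11 GTPases make up the score, so their own slopes on it are circular and were left out of the counts. Irgm1 and Gbp2 were the most abundant of them, at medians of 12.2 and 10.3 RPKM, and over the 11 the r with the mean of the standardised members ran from 0.607 (Gbp4) to 0.947 (Gbp3). Of 36 other testable interferon-stimulated genes 30 rose and none fell, Oas1g (0.84 ± 0.11) and Ifi27l2a (0.78 ± 0.19) most steeply. Psmb8 (0.41 ± 0.06), Psmb9 (0.39 ± 0.05) and Tap1 (0.36 ± 0.03), which cut and carry peptides for presentation on MHC class I, were among them. Ly6e, the most abundant with a median of 687 RPKM, did not pass (0.21 ± 0.09, adjusted p = 0.219), nor did Pnpt1 (0.02 ± 0.05, adjusted p = 0.879). The median slope of the list was 0.36.

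Upstream of these genes few passed the test. None of the 9 receptor and kinase genes did, with Jak1 at 0.16 ± 0.06 (adjusted p = 0.190) and Tyk2 at -0.10 ± 0.04 (adjusted p = 0.199). The receptor genes Ifnar1 and Ifnar2, with medians of 10.9 and 41.5 RPKM, had slopes of 0.02 and 0.06. Of 13 testable genes of interferon induction 1 rose, where 1.94% of all tested genes did: Irf8 (0.29 ± 0.06, adjusted p = 0.00602), a factor of myeloid and lymphoid cells. Just above the limma threshold were Irf1 (0.12 ± 0.03, adjusted p = 0.0516), Ikbke (0.15 ± 0.04, adjusted p = 0.0534) and Irf5 (0.19 ± 0.06, adjusted p = 0.0586). Irf3 (-0.07 ± 0.04) and Cgas (-0.004 ± 0.04) had negative slopes that did not pass. None of the 7 negative regulators passed, Socs1 and Ptpn2 among them. Of the interferon genes themselves, Ifnb1 reached at most 0.047 RPKM and Ifng 0.123 RPKM in any tumour, and of 21 listed Ifnk, Ifnl2 and Ifnl3 were testable. Ifnl2 and Ifnl3, which are near-copies, had medians of 4.99 and 4.92 RPKM and were highest in animal 3654, at 13.3 and 12.3 RPKM. None of these 3 passed. T cell markers Cd3g (0.50 ± 0.10), Cd3d (0.39 ± 0.07) and Cd3e (0.38 ± 0.09) rose with the GTPase score, 3 of 6, as did 2 of 3 B cell markers, Cd79b (0.54 ± 0.12) and Cd79a (0.50 ± 0.14). Of 12 macrophage markers Fcgr1 rose (0.14 ± 0.04), of 11 stromal matrix genes Sparc (0.38 ± 0.09), and of 14 proliferation genes 3 fell, Cdk1, Aurkb and Ube2c. None of the 5 testable genes listed for plasmacytoid dendritic cells passed, but these left out Siglech and Ccr9, which were below the test level, and included Klk1 and Cox6a2, which reached 404 RPKM in animal 4461 and 115 RPKM in animal 3273.

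Ube2l6, the conjugating enzyme for Isg15, rose with the GTPase score (0.45 ± 0.06, adjusted p = 3.29e-06), as did Herc6 (0.41 ± 0.04) and Trim30a (0.73 ± 0.11). By likeness to the mean of the standardised members over 30 tumours, the first were Ifit3b (r = 0.958), Gbp3 (0.947), Adar (0.936), Oas1g (0.927) and Igtp (0.923). Oas1b, Irgm2, Apol9a, Tor3a and Tap1 followed, down to 0.875. Adar, the editor of double-stranded RNA, spanned a narrow range for this group, from 8.68 through 11.9 to 18.5 RPKM, while Apol9a, which stood in none of the lists, ran from 0.638 through 2.20 to 17.7 RPKM.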

How the data were processed

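The authors deposited expression values of 27902 transcripts in 30 tumours in 1 table. That they are RPKM was inferred from the deposited values, and how the authors made them is known only in that CASAVA 1.7.0 is named in the submitters' processing notes. Mapping settings and build: not given in the sources used here. RefSeq named 26490 transcripts and GENCODE 154. The 1258 others, with 1.94% of RPKM, and 692 small RNA transcripts were left out. Of the low values, 64.8 to 74.8% lay within 0.12 of a whole read (24% by chance), too few for counts to be rebuilt.

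All tests used log2(RPKM + 1), a scale that compresses changes of scarce genes. Genes averaging 1 RPKM or more were fitted with limma 3.58.1 in R 4.3.3 (trend, two-sided), with Benjamini-Hochberg adjustment over all of them and a threshold of 0.05. Scores are means of standardised genes, divided by their SD. Python 3.11.15, numpy 2.4.6, scipy 1.17.1, pandas 2.3.3 and matplotlib 3.10.9 gave descriptions and plots. Members and lists were chosen with earlier results of these data known. Named were members by level, spread, departure and role, a selection of each list's most abundant and extreme genes, and the genes with the smallest p or highest r. Some planned results are not reported here. Alternatives are in the closing section. Those without the 4 highest tumours or with the length slope, and the fits of every member, were added after seeing the data. The fit on the GTPase score was tested on simulated data with noise independent between genes, and the other fits were not. Of simulated slopes of 0.1, 4% were recovered, against 68% at 0.25 and 96% at 0.5. Slopes as small as those of Isg20 and Trim25 would thus mostly be missed.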

Additional observations from a re-analysis of the deposited data

How the results depend on the processing

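Counts of members called, and of genes called for a single member, moved under the settings below. The counts of members are given without the share of all tested genes called in the same refit. Without the 4 highest tumours, 8 members passed for the GTPase score, 2 for macrophages, 1 for stroma and 0 for proliferation, and the genes called numbered 1 for Isg20, 1 for Oas3 and 71 for Irf7. The median pairwise r was then 0.530. Within the deep libraries the counts were 19 for the GTPase score, 2 for macrophages, 1 for stroma and 0 for proliferation, with 8 genes for Isg20, 121 for Ifi35 and 0 for Trim25, Oas3 and Irf7. Within the shallow libraries they were 15 members for T cells and 0 for macrophages, stroma and proliferation, with 0 genes for Isg20, Oas3 and Irf7 and 1565 for Ifi35. On ranks of the predictor they were 0 for macrophages, 1 for stroma and 2 for proliferation, with 2 genes for Isg20, 1568 for Ifi35, 716 for Trim25 and 0 for Oas3 and Irf7.

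With no filter on low values 2 members passed for T cells and 4 for proliferation, and 13 genes for Isg20. With depth class as a covariate 7 members passed for T cells and 7 genes for Oas3. Quantile normalization gave 5 members for proliferation, and 117 genes for Isg20, 1 for Oas3, 283 for Irf7 and 2 for Xaf1. Upper-quartile scaling gave 2 members for macrophages and shifted the median of all genes by up to 0.10 log2 units. With the length slope as a covariate the counts were 0 for macrophages, and 3 genes for Isg20, 0 for Ifi35, 1 for Trim25, 6 for Oas3, 160 for Irf7 and 4 for Xaf1. The cause of these moves was not tested. The slope of Isg20 on the GTPase score reversed sign without the 4 highest tumours (-0.12) and within the shallow libraries (-0.074). Of 1375 refits of single members on that score, most of them without 1 tumour, 1322 kept direction and side of the threshold. Even so, 24 of the 33 members lost the call in at least 1 refit.

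Leaving out each tumour in turn gave 29 to 31 members for the GTPase score, 0 to 4 for T cells, 0 to 6 for macrophages, 1 to 12 for stroma, 0 to 21 for proliferation, 0 to 0 for luminal cells, and 0 to 1 for insert size and for depth. It gave 2 to 1833 genes for Isg20, 650 to 3131 for Ifi35, 79 to 3097 for Trim25, 1 to 6 for Oas3, 116 to 1139 for Irf7 and 0 to 1 for Xaf1, a median pairwise r of 0.715 to 0.766 and a median SD of 0.51 to 0.55. At a mean of at least 5 RPKM, Isg20 and Oas3 had no value. No paired analysis was possible because the labels hold 1 group without replicate numbers. Members under 2 RPKM, above all in shallow libraries, are the least precise.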
